A study of Mus musculus with 8 samples.

Results

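The genes described here encode the subunits of oxidative phosphorylation, that is, of the respiratory complexes I to IV and of ATP synthase (complex V) in the inner mitochondrial membrane. They were taken by symbol from the protein-coding genes of the count tables. A symbol had to begin with Nduf, then a, b, c, s or v and a digit, or with Uqcr, Atp5 or mt-, or with Cox and a digit from 4 to 8, or to be Sdha, Sdhb, Sdhc or Sdhd. This gave 102 of 21627 protein-coding genes, 89 of them nuclear and 13 encoded by the mitochondrial genome, among 55416 gene identifiers in all. Another 41 identifiers had such a symbol but were not annotated as protein-coding and were not used. The rule leaves out Ndufab1, the acyl carrier protein of complex I, and Cyc1, the cytochrome c1 of complex III. It takes in Atp5if1, which inhibits ATP synthase, Cox7a2l, which helps complexes III and IV to join, and Cox5b-ps, whose name marks it as a pseudogene of Cox5b although the annotation lists it as protein-coding. The filter on low counts passed 85 nuclear members and 13 mitochondrially encoded members, and it did not pass Ndufb11b, Cox7b2, Cox8c and a further identifier named Atp5po.

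Lung RNA was sequenced from 8 female C57BL/6J mice (C57BL/6 in the labels) aged 6 to 8 weeks, in the setting of endotoxic shock and of inhibition of peptidylarginine deiminases (PAD), the enzymes that citrullinate histones when neutrophils release extracellular traps. The 3 control mice (numbers 1, 2 and 4) were given DMSO intravenously and then saline intraperitoneally. The 3 LPS mice (numbers 1, 6 and 7) were given 35 mg/kg of lipopolysaccharide intraperitoneally, and no DMSO is mentioned for them in the methods, so that LPS and the absence of DMSO cannot be told apart. The 2 dual-treatment mice (numbers 2 and 5) were given 10 mg/kg of the PAD inhibitor YW3-56 in DMSO shortly before the same dose of LPS. All lungs were taken about 24 h after LPS, and the total count per library ran from 19061949 to 20908608. Levels below are counts scaled to a common library size (CPM, with TMM factors from edgeR). Differences are log2 fold changes (log2FC) from the edgeR quasi-likelihood fit to all 8 libraries, given with their standard errors, and a gene was called where the Benjamini-Hochberg adjusted p over the 18560 tested genes was under 0.05. At an unadjusted p under 0.05 there were 12916 of these genes in LPS against control mice. There were 5658 in dual-treatment against control mice and 11798 in dual-treatment against LPS mice.

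Complexes I and II take electrons from NADH and succinate to ubiquinone, complex III hands them to cytochrome c, and complex IV passes them to oxygen. Complexes I, III and IV pump protons, and ATP synthase makes ATP as the protons flow back. A small core of complexes I, III, IV and V is encoded by mitochondrial DNA and made inside the organelle, while the other subunits, among them the whole of complex II, are encoded in the nucleus and imported. Several subunits exist as isoforms with a narrow tissue range: Cox4i2 is best known from lung, and Cox6a2, Cox7a1 and Cox8b from heart and skeletal muscle.

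The markers of lung were present in each of the 8 libraries. The 7 markers of alveolar type 2 cells, led by the surfactant gene Sftpc, summed to 36801, 30779 and 38572 CPM in the control mice, 28763, 20449 and 16751 CPM in the LPS mice and 19843 and 30096 CPM in the dual-treatment mice. The 7 markers of ciliated and club cells, led by the club cell secretory gene Scgb1a1, summed to 30926, 39257 and 36582 CPM, 67461, 57070 and 55765 CPM, and 23916 and 26616 CPM in the same order. Some libraries also held RNA that marks other tissues. The 7 markers of squamous epithelium that were matched, of 8, led by the keratin gene Krt13, summed to 706 and 1982 CPM in LPS mice 6 and 7, against 0.948 CPM in LPS mouse 1 and at most 21.8 CPM in the control and dual-treatment mice. The 13 skeletal muscle markers, led by the actin gene Acta1, summed to 649 and 1507 CPM in LPS mice 6 and 7 and to at most 84.5 CPM in the other libraries. The 11 cardiomyocyte markers, led by the myosin gene Myh6, summed to 478, 1310 and 746 CPM in the control mice, 660, 1058 and 724 CPM in the LPS mice and 277 and 272 CPM in the dual-treatment mice. The 6 brown fat markers, led by the fatty acid binding gene Fabp4, were highest in dual-treatment mouse 2 at 789 CPM, and next in control mouse 2 at 323 CPM. None of the markers in these lists was at 0 in every library. Their part in the results below was not tested. Values without a library are given in places, but leaving out a mouse also removes all else that differs in it. Leaving out LPS mouse 6 or LPS mouse 7 alone keeps the other in the group. In whole lung, fewer cells of a type and less RNA per cell cannot be told apart.

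The 13 mitochondrially encoded genes held 1.48%, 1.52% and 1.41% of all counts in the control mice, 1.46%, 1.69% and 1.79% in the LPS mice and 1.26% and 1.13% in the dual-treatment mice. By these shares the dual-treatment mice were the lowest, and the control and LPS mice overlapped. The widest of the 95% Wilson intervals of these shares, that of LPS mouse 7, ran from 1.788% to 1.800%, and such intervals cover counting error only. After TMM scaling the same genes summed to 13777.8, 14141.9 and 13263.3 CPM in the control mice. The sums were 17975.9, 18887.5 and 19286.4 CPM in the LPS mice and 11384.9 and 10400 CPM in the dual-treatment mice. The scaled sums of the 3 groups did not overlap, with the LPS mice highest. The 89 nuclear members held 0.742%, 0.783% and 0.724% of all counts in the control mice, 0.786%, 0.887% and 0.728% in the LPS mice and 0.865% and 0.843% in the dual-treatment mice. By share the LPS mice overlapped the control mice, and both dual-treatment mice were above the control mice. After TMM scaling the nuclear members summed to 6913, 7270 and 6823 CPM in the control mice. The sums were 9698, 9922 and 7825 CPM in the LPS mice and 7792 and 7731 CPM in the dual-treatment mice. The scaled sums of the 3 groups did not overlap, with the LPS mice highest and the control mice lowest. LPS mouse 7, at 7825 CPM, was only just above dual-treatment mouse 2, at 7792 CPM. By share LPS mouse 7, at 0.728%, was below both dual-treatment mice, so this order rests on the scaling.

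Per length, the members differed widely in the control lung. Among the nuclear members the highest control mean per kb of canonical transcript was 431 CPM per kb for Cox4i1, the ubiquitous form of the complex IV subunit that binds regulatory ligands. The leaders of the other complexes were Atp5f1b, the catalytic beta subunit of ATP synthase, at 262 CPM per kb, Uqcr10 of complex III at 219.6 CPM per kb, Ndufa4, named for complex I and found in complex IV, at 203 CPM per kb, and Sdha, the flavoprotein of complex II, at 79.2 CPM per kb. Among the mitochondrially encoded genes, mt-Co1, the catalytic core of complex IV, had 3867 CPM per kb and mt-Cytb, the cytochrome b of complex III, had 2378 CPM per kb.

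The mitochondrially encoded genes fell into 2 sets by level. The control mean was 356 to 3867 CPM per kb for mt-Co1, mt-Cytb, mt-Nd1, mt-Nd2, mt-Nd4, mt-Nd5 and mt-Nd6, and 2.30 to 40.0 CPM per kb for mt-Co2, mt-Co3, mt-Atp6, mt-Atp8, mt-Nd3 and mt-Nd4l. The 6 genes of the low set share a feature of sequence: the whole transcript of mt-Co2, mt-Co3, mt-Atp6, mt-Atp8 and mt-Nd4l, and 345 of the 348 bases of mt-Nd3, have an identical stretch on chromosome 1 of GRCm39, between positions 24651485 and 24654646. Of the other genes, mt-Nd4 has an identical nuclear stretch over 876 of its 1378 bases, and the other 6 have none, although 31.3% of mt-Co1 lies in nuclear stretches that are at least 99% identical. Reads from an identical stretch map to more than 1 place, and the handling of such reads is not given in the sources used here. The values of the 6 genes with a full copy are therefore uncertain, and counts are given below for the 7 others as well. One of the 6, mt-Co2, varied widely within groups, with 62.7, 10.2 and 9.28 CPM in the control mice, 14.9959, 58.3 and 13.9978 CPM in the LPS mice and 12.5 and 8.95 CPM in the dual-treatment mice. Of the nuclear members, Ndufs5 and Cox5b-ps have a nuclear copy that is at least 95% identical over at least 90% of the transcript, and their values are uncertain too. Shorter copies are not counted by this rule, which found none for Cox5b although Cox5b-ps is named as its pseudogene. Ndufa12-ps, a pseudogene by annotation, held 144 to 213 counts per library. The other members are therefore not shown to be free of copies.

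**Figure D1:**
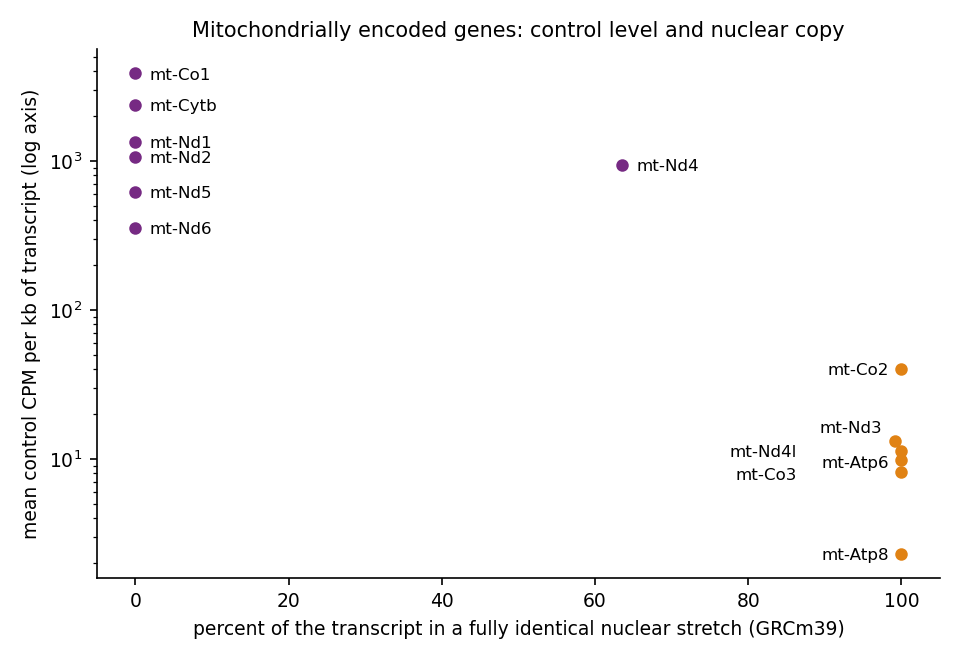
Mean control level of the 13 mitochondrially encoded genes (CPM per kb of transcript, log axis, n = 3 mice) against the percentage of the transcript that lies in a fully identical nuclear stretch of GRCm39. The 6 genes with such a stretch over at least 99% of their length, in orange, lie between 2.30 and 40.0 CPM per kb, and the 7 others lie between 356 and 3867 CPM per kb.

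In LPS mice the nuclear subunit genes were mostly above the control level, with a few far below it. Of the 85 tested, 52 rose and 7 fell by the edgeR adjusted p, beside 32.6% higher and 33.9% lower among all tested genes. The largest called rise was that of Uqcrq, a small subunit of complex III, at 1.98-fold, while the falls of Cox6b2, Cox4i2 and Ndufa4l2, all isoforms with a narrow tissue range, reached a log2FC of -2.80, -2.36 and -2.05. The median log2FC was 0.44, against -0.01 over all tested genes. Among the mitochondrially encoded genes 6 rose and 0 fell by edgeR, 6 had an unadjusted p under 0.05 and DESeq2 called 7 higher and 0 lower; their median log2FC was 0.29, and 0.62 over the 7 without a full nuclear copy. The study's criterion is a fold over 2 with a p under 0.05. It was applied here to the same edgeR fit, with the p taken as unadjusted. By this fold criterion 0 nuclear members were higher and 3 were lower, beside 18.3% higher and 21.8% lower among all tested genes. No mitochondrially encoded gene passed it. At an unadjusted p under 0.05 without a limit on the fold there were 61 of the 85 nuclear members, beside 12916 of the 18560 tested genes.

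These counts rest on the scaling between libraries. With library size alone the median log2FC of all tested genes moved to -0.29, and 20 nuclear members were called higher and 15 lower, beside 23.4% higher and 42.2% lower among all tested genes, with 3 and 1 of the mitochondrially encoded genes (6 and 1 with offsets for length and GC content); with the upper quartile it moved to -0.10, with 42 and 10 nuclear calls, beside 29.6% and 36.7% of all tested genes. Relative to the median of all tested genes, the nuclear median was 0.45 with TMM, 0.44 with library size alone and 0.44 with the upper quartile, and the mitochondrially encoded median was 0.30, 0.31 and 0.30. A change of scaling moves all genes of a comparison by nearly the same amount. These differences could therefore hardly have changed, and they do not test the scaling. The nuclear members were not equally high in the 3 LPS mice. Over the 85 tested, the median log2 ratio of a mouse to the control mean was 0.48 in LPS mouse 1, 0.54 in LPS mouse 6 and 0.14 in LPS mouse 7, while the 7 mitochondrially encoded genes without a full copy had medians of 0.40, 0.63 and 0.62. LPS mouse 7 had the lowest CPM of the group for 69 of the 85 nuclear members, and its library is also the one with most skeletal muscle and squamous marker counts. Leaving out each library in turn gave 40 to 57 nuclear members higher and 5 to 10 lower. Among all tested genes, 28.9% to 31.5% were higher and 30.8% to 33.6% lower without a control or LPS mouse.

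**Figure D2:**
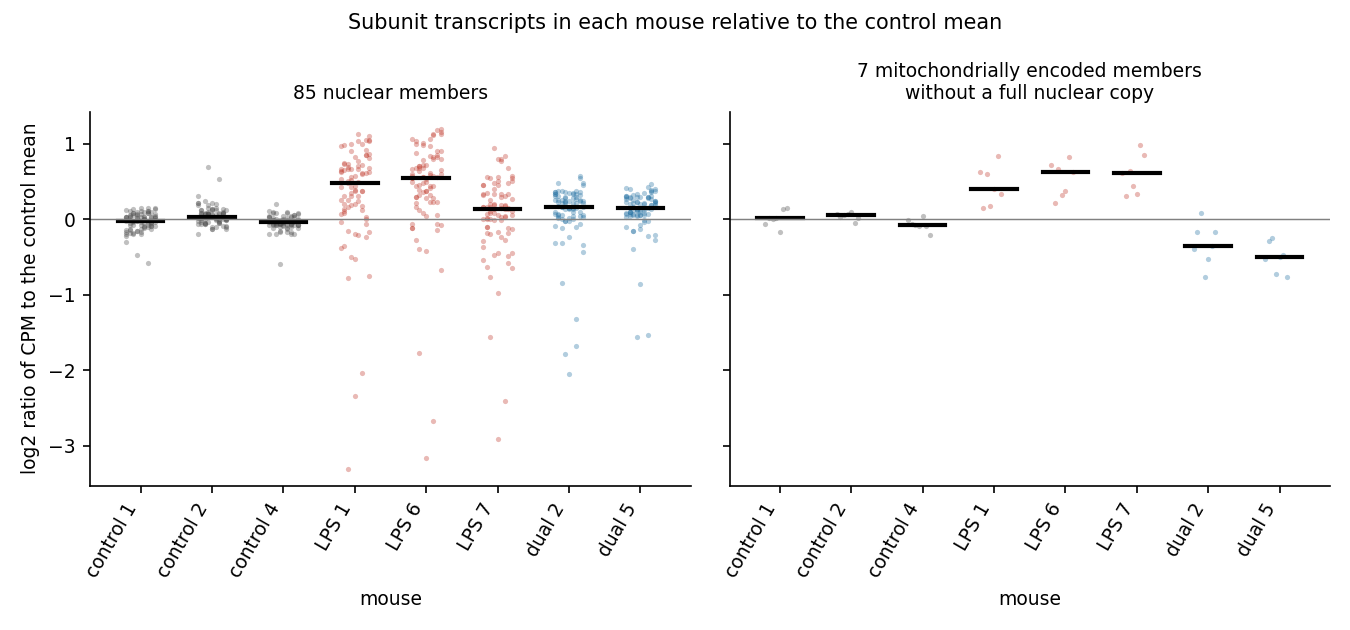
Log2 ratio of the CPM of each mouse to the control mean (0.1 CPM added to both) for the 85 tested nuclear members, left, and for the 7 mitochondrially encoded members without a full nuclear copy, right; each point is a gene and each black line the median, after TMM scaling. The nuclear median is 0.48, 0.54 and 0.14 in the LPS mice and 0.16 and 0.15 in the dual-treatment mice, and the mitochondrially encoded median is 0.40, 0.63 and 0.62 in the LPS mice and -0.35 and -0.50 in the dual-treatment mice.

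In complex I, which oxidises NADH, most called nuclear subunits rose with LPS and a small group fell. The complexes are assigned by symbol, so Ndufa4 and Ndufa4l2 are counted here. Of 38 tested nuclear members 21 rose and 4 fell, beside 32.6% and 33.9% of all tested genes, with a median log2FC of 0.38. Library size alone gave 7 and 9, beside 23.4% and 42.2%, with a median of 0.09. In both the median was 0.39 above that of all genes, which a change of scaling could hardly alter. Leaving out control mouse 4 gave 15 and 2. Ndufs3, a core subunit of the arm that carries electrons from NADH, had 53.5, 53.0 and 54.0 CPM in the control mice, 117, 104.837 and 93.0 CPM in the LPS mice and 65.4 and 58.4 CPM in the dual-treatment mice. The LPS mice were above the other mice without overlap. It rose with LPS by a log2FC of 0.97 ± 0.10 (edgeR adjusted p = 2.7e-05, higher in 3 of 3 LPS mice). Ndufb1, a small subunit of the membrane arm, rose by 0.96 ± 0.15 and Ndufa4 by 0.78 ± 0.13.

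The genes named for complex I that fell were Ndufa6, Ndufb2, Ndufs8 and Ndufa4l2. Ndufa6, an accessory subunit of the LYR protein family, had 120, 98.9 and 106 CPM in the control mice, 75.4, 80.7 and 54.8 CPM in the LPS mice and 91.8 and 98.9 CPM in the dual-treatment mice. The LPS mice were the lowest, without overlap, and the fall was by 0.62 ± 0.14 on the log2 scale (edgeR adjusted p = 0.0039). Ndufs8, which holds iron-sulfur clusters near the ubiquinone site, had 50.3, 56.3 and 59.3 CPM in the control mice and 43.2, 45.6 and 35.8 CPM in the LPS mice. It fell by 0.41 ± 0.12 (edgeR adjusted p = 0.012), and without control mouse 4 the log2FC was -0.36 with an adjusted p of 0.0515. Ndufb2, a small subunit of the membrane arm at 4.94 to 6.52 CPM in the control mice, fell by 0.64 ± 0.21 (edgeR adjusted p = 0.021), a call lost without LPS mouse 1 (-0.57, adjusted p = 0.0612), LPS mouse 7 (-0.57, 0.0583) or control mouse 4 (-0.52, 0.0985).

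Of the 7 mitochondrially encoded subunits of complex I, 5 rose with LPS and 0 fell by edgeR, beside 32.6% and 33.9% of all tested genes. At an unadjusted p under 0.05 there were 5 of the 7, beside 12916 of the 18560 tested genes. Library size alone gave 2 higher and 1 lower, beside 23.4% and 42.2%, and leaving out control mouse 1 or control mouse 4 gave 3 and 0. mt-Nd5, a proton-pumping subunit, had 1238, 1091 and 1058 CPM in the control mice, 2022, 2002 and 2241 CPM in the LPS mice and 887 and 812 CPM in the dual-treatment mice. The groups did not overlap, with the LPS mice highest and the dual-treatment mice lowest. It rose by 0.89 ± 0.12 (edgeR adjusted p = 0.00014), and by 0.60 with library size alone. mt-Nd1, which forms part of the ubiquinone site, had 1283, 1336 and 1219 CPM, 1935, 2038 and 1988 CPM, and 1355 and 1083 CPM in the same order. It rose by 0.64 ± 0.12 (edgeR adjusted p = 0.0014), with dual-treatment mice on either side of the control values. mt-Nd6, the one protein-coding gene on the light strand, had 206, 187 and 160 CPM in the control mice and 233, 285 and 332 CPM in the LPS mice, a rise of 0.62 ± 0.18 (edgeR adjusted p = 0.013) that was not called without control mouse 4 (0.53, adjusted p = 0.0621) or with library size alone (0.34, 0.166). mt-Nd4 rose by 0.37 ± 0.11 and mt-Nd2 by 0.32 ± 0.11, both proton-pumping subunits. The first was not called without control mouse 1 (0.29, edgeR adjusted p = 0.083) or with library size alone (0.08, 0.502). The second was not called with library size alone (0.04, 0.812) or the upper quartile (0.23, 0.106), nor without LPS mouse 6 (0.32, 0.069), LPS mouse 7 (0.26, 0.0632), control mouse 1 (0.32, 0.0826), control mouse 2 (0.35, 0.0699) or control mouse 4 (0.27, 0.13). The low-level mt-Nd3 and mt-Nd4l had a log2FC of -0.63 ± 0.33 and -0.08 ± 0.37 without a call; mt-Nd3 was called lower without LPS mouse 6 (-0.99, edgeR adjusted p = 0.0258), which makes the count 4 higher and 1 lower.

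Complex II, the entry point for succinate, did not move as one. Of its 4 genes Sdhb and Sdhd rose with LPS, Sdha fell and Sdhc was not called. Sdha, the flavoprotein that oxidises succinate, had 238, 266 and 225 CPM in the control mice, 145, 153 and 156 CPM in the LPS mice and 192 and 211 CPM in the dual-treatment mice. The groups did not overlap, and the dual-treatment mice stood between the control and LPS mice. It fell with LPS by 0.68 ± 0.10 on the log2 scale (edgeR adjusted p = 0.00023, lower in 3 of 3 LPS mice), with each scaling tried and without each library in turn. Sdhd, which anchors the complex in the membrane, had 66.9, 90.5 and 72.8 CPM, 127, 126 and 112 CPM, and 99.8 and 96.3 CPM in the same order. It rose by 0.66 ± 0.12 (edgeR adjusted p = 0.00092), and the LPS mice were the highest. Sdhb, the iron-sulfur subunit, had 63.2, 82.4 and 71.1 CPM in the control mice and 86.7, 105.241 and 90.5 CPM in the LPS mice. It rose by 0.38 ± 0.12 (edgeR adjusted p = 0.017), a call lost without LPS mouse 6 (0.30, adjusted p = 0.0566), control mouse 1 (0.29, 0.0703) or control mouse 4 (0.37, 0.0582), with library size alone (0.10, 0.531) and with the upper quartile (0.29, 0.0583). Sdhc, the other membrane anchor, had a log2FC of 0.09 ± 0.09, or -0.20 with library size alone, without a call.

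Complex III rose with LPS in most of its nuclear genes. Of 8 tested, 6 rose and 0 fell by edgeR, beside 32.6% higher and 33.9% lower among all tested genes. At an unadjusted p under 0.05 there were 6 of the 8, beside 12916 of the 18560 tested genes. The median log2FC was 0.45. Library size alone gave 2 higher and 0 lower, beside 23.4% and 42.2%, with a median of 0.16. Uqcrq had 83.3, 99.6 and 89.9 CPM in the control mice, 188, 207 and 146 CPM in the LPS mice and 136 and 126 CPM in the dual-treatment mice. The groups were apart, with the dual-treatment mice between the others. It rose with LPS by 0.99 ± 0.14 (edgeR adjusted p = 0.00016). Uqcrfs1, the Rieske iron-sulfur protein, had 74.6, 93.2 and 74.6 CPM, 166, 169 and 138 CPM, and 103 and 80.1 CPM in the same order, and rose by 0.96 ± 0.14 (edgeR adjusted p = 0.00021). Here the dual-treatment mice overlapped the control mice. Uqcr10, a small subunit, had 101, 94.1 and 100 CPM in the control mice and 154, 150 and 98.7 CPM in the LPS mice, so that LPS mouse 7 lay among the control mice. Its rise of 0.45 ± 0.16 (edgeR adjusted p = 0.031) was not called without LPS mouse 1 (0.34, adjusted p = 0.0941), LPS mouse 6 (0.37, 0.0951), control mouse 1 (0.46, 0.0655), control mouse 2 (0.41, 0.0917) or control mouse 4 (0.46, 0.0654), nor with library size alone (0.15, 0.366). mt-Cytb, the one subunit of the complex that mitochondrial DNA encodes, had 2619, 2849 and 2692 CPM in the control mice, 4202, 4488 and 4181 CPM in the LPS mice and 2065 and 1896 CPM in the dual-treatment mice. It rose with LPS by 0.66 ± 0.12 (edgeR adjusted p = 0.00093), and no mouse of 1 group fell within another group.

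In complex IV the ubiquitous subunits rose with LPS and the isoforms Cox4i2 and Cox6b2 fell. Of 17 tested nuclear members 12 rose and 2 fell, beside 32.6% and 33.9% of all tested genes, with a median log2FC of 0.54; library size alone gave 6 and 3, beside 23.4% and 42.2%, with a median of 0.26. Cox5b, which binds zinc on the matrix side, had 101, 94.8 and 91.0 CPM in the control mice, 206, 210 and 142 CPM in the LPS mice and 131 and 124 CPM in the dual-treatment mice. It rose with LPS by 0.96 ± 0.14 (edgeR adjusted p = 0.00028), and the 3 groups did not overlap. Cox4i1 had 346, 344 and 324 CPM, 551, 515 and 417 CPM, and 391 and 388 CPM in the same order, and rose by 0.55 ± 0.12 (edgeR adjusted p = 0.0027). Cox7b rose by 0.60 ± 0.12, and Cox8a, Cox6a1, Cox7a2 and Cox6b1, partners of the tissue-restricted isoforms, had a log2FC of 0.54, 0.53, 0.46 and 0.44. Of these, Cox6a1 was not called without LPS mouse 6 (0.46, edgeR adjusted p = 0.0523) or control mouse 2 (0.51, 0.0527), and none of these 4 was called with library size alone, where their log2FC was 0.25, 0.23, 0.17 and 0.14. The mitochondrially encoded mt-Co1 had 6072, 6113 and 5739 CPM in the control mice and 6612, 6938 and 7381 CPM in the LPS mice, above the control mice without overlap, with a log2FC of 0.22 ± 0.13 that was not called (edgeR adjusted p = 0.15). The low-level mt-Co2 and mt-Co3 had a log2FC of 0.09 ± 0.76 and 0.29 ± 0.18; mt-Co2 was called without control mouse 1 (1.57, adjusted p = 0.0487).

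Complex V, the ATP synthase, had 11 of 18 tested nuclear members higher with LPS and 0 lower by edgeR, beside 32.6% and 33.9% of all tested genes. At an unadjusted p under 0.05 there were 12 of the 18, beside 12916 of the 18560 tested genes. The median log2FC was 0.37. Library size alone gave 4 higher and 2 lower, beside 23.4% and 42.2%, with a median of 0.08. Leaving out LPS mouse 6 gave 9 and 1, and leaving out control mouse 2 gave 12 and 1. Atp5f1b had 473, 562 and 481 CPM in the control mice, 626, 671 and 638 CPM in the LPS mice and 637 and 536 CPM in the dual-treatment mice. The LPS mice were above the control mice, and the dual-treatment mice overlapped both groups. Its rise of 0.35 ± 0.12 (edgeR adjusted p = 0.023) was not called without LPS mouse 6 (0.33, adjusted p = 0.0602), control mouse 1 (0.30, 0.092) or control mouse 4 (0.32, 0.0878), nor with library size alone (0.07, 0.647) or the upper quartile (0.26, 0.0734). Atp5mj and Atp5mg, small subunits of the membrane part, rose by 0.72 ± 0.16 and 0.63 ± 0.14. Atp5if1, the inhibitor, had 25.2, 20.2 and 23.8 CPM in the control mice and 17.8, 21.3 and 15.8 CPM in the LPS mice, with overlap. Its log2FC of -0.33 ± 0.15 was not called (edgeR adjusted p = 0.067), and it was called lower without LPS mouse 6 (-0.45, adjusted p = 0.0271), without control mouse 2 (-0.43, 0.0464), with library size alone (-0.62, 0.00469) and with the upper quartile (-0.43, 0.0281). The mitochondrially encoded mt-Atp6 and mt-Atp8, both with a full nuclear copy, had a log2FC of 0.28 ± 0.36 and 0.24 ± 0.48 without a call; mt-Atp6 was called higher without control mouse 1 (0.88, adjusted p = 0.0117).

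**Figure D3:**
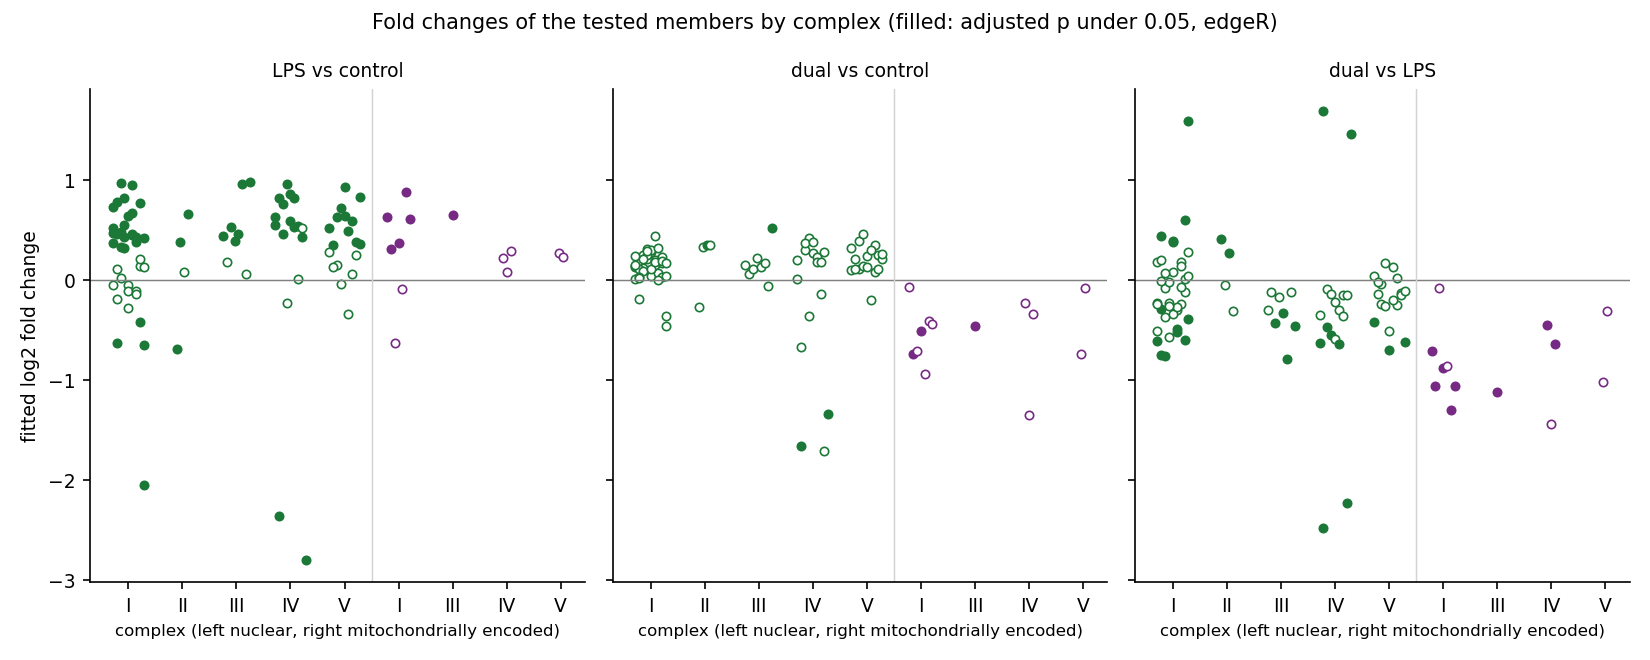
Fitted log2 fold change of the tested members in the 3 comparisons after TMM scaling, by complex, for the 85 nuclear members (green) and the 13 mitochondrially encoded members (purple); each point is a gene and filled points have an edgeR adjusted p under 0.05. The nuclear median is 0.44, 0.18 and -0.21 in the order of the panels, the last of which is 0.12 with library size alone, and the mitochondrially encoded median is 0.29, -0.46 and -0.88.

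The 3 strongest falls with LPS were those of isoforms. Cox4i2 (ENSMUSG00000009876, chr2:152595625-152606959 of GRCm39), the lung form of the complex IV subunit Cox4i1, had 54.0, 48.4 and 47.5 CPM in the control mice, 12.1, 7.73 and 9.37 CPM in the LPS mice and 19.9941 and 42.8 CPM in the dual-treatment mice. The LPS mice were far below the control mice, dual-treatment mouse 5 was near the control mice and dual-treatment mouse 2 lay between. It fell with LPS by 2.36 ± 0.27 on the log2 scale (edgeR adjusted p = 4.5e-05, lower in 3 of 3 LPS mice). Cox6b2 (ENSMUSG00000051811, chr7:4754789-4756093), known as the testis form of Cox6b1, had 23.0, 20.1 and 22.7 CPM, 4.27, 2.37 and 2.84 CPM, and 5.26 and 12.1 CPM in the same order. It fell by 2.80 ± 0.32 (edgeR adjusted p = 4.8e-05), and its groups did not overlap either. Ndufa4l2 (ENSMUSG00000040280, chr10:127350818-127353038), a paralog of Ndufa4 known to be induced by HIF-1 in hypoxia, had 19.5, 17.6 and 18.1 CPM in the control mice, 1.78, 5.31 and 6.19 CPM in the LPS mice and 10.2 and 16.5 CPM in the dual-treatment mice. It fell by 2.05 ± 0.37 (edgeR adjusted p = 0.00088), with the LPS mice lowest and the dual-treatment mice between them and the control mice. These 3 calls held with each scaling tried and without each library in turn. Over 63.3% of its exon bases Ndufa4l2 overlaps Shmt2, a serine metabolism gene on the other strand; since the strand setting is not given, reads of the partners cannot be told apart, and Shmt2 itself had 21.3, 24.1 and 28.0 CPM, 23.8, 22.6 and 25.7 CPM, and 47.7 and 29.2 CPM.

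Ndufa4l2 and Cox4i2 are known from pericytes of the lung, and the markers of these cells, a list made after the values of the members had been seen, are given beside them. The 11 pericyte markers, led by the growth factor receptor gene Pdgfrb, summed to 741, 872 and 795 CPM in the control mice, 336, 299 and 311 CPM in the LPS mice and 515 and 570 CPM in the dual-treatment mice, and none was at 0. With LPS 10 of the 11 were lower and 0 higher by edgeR, beside 32.6% higher and 33.9% lower among all tested genes. In dual-treatment against LPS mice 9 were higher and 1 lower, beside 31.7% and 27.4%. At an unadjusted p under 0.05 there were 11 with LPS, beside 12916 of the 18560 tested genes. Without LPS mouse 1 or LPS mouse 7 the first count was 1 higher and 10 lower, and without dual-treatment mouse 2 the second was 8 and 0. Higd1b, a pericyte gene, had 31.6, 24.9 and 26.3 CPM, 1.01, 1.04 and 1.56 CPM, and 14.3 and 23.6 CPM. Its log2FC was -4.51 with LPS, and the LPS mice were the lowest. The part of pericytes in the fall of Ndufa4l2 and Cox4i2 was not tested. Hif1a, which encodes the oxygen-sensing subunit of HIF-1 and was chosen after its values were seen, had 41.0, 44.4 and 46.4 CPM in the control mice, 448, 336 and 328 CPM in the LPS mice and 90.1 and 51.3 CPM in the dual-treatment mice, and its part was not tested either. Epas1, the matching subunit of HIF-2 and chosen in the same way, had 2669, 2795 and 2942 CPM, 1360, 1080 and 1330 CPM, and 2262 and 2955 CPM, with the LPS mice lowest.

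The muscle isoforms followed another order of mice. Cox7a1, the heart and muscle form of Cox7a2, had 4.01, 8.81 and 5.28 CPM in the control mice, 7.82, 13.3 and 10.9 CPM in the LPS mice and 1.81 and 2.02 CPM in the dual-treatment mice. Control and LPS mice overlapped, and the dual-treatment mice were below both. With LPS its log2FC was 0.82 ± 0.30 (edgeR adjusted p = 0.036), and it was not called without LPS mouse 6 (0.64, adjusted p = 0.123), LPS mouse 7 (0.82, 0.0668), control mouse 1 (0.60, 0.119) or control mouse 4 (0.74, 0.114), nor with library size alone (0.55, 0.159) or the upper quartile (0.73, 0.0587). Cox8b, the muscle form of Cox8a, had 4.30, 9.71 and 3.95 CPM, 4.21, 9.92 and 11.6 CPM, and 1.68 and 1.97 CPM. Its log2FC with LPS was 0.52 ± 0.42 without a call, and without control mouse 2 it was 1.05 with an edgeR adjusted p of 0.0486. The highest values, those of control mouse 2 and of LPS mice 6 and 7, came from libraries high in cardiomyocyte or skeletal muscle markers. Control mouse 4 had 746 CPM of cardiomyocyte markers, above the 724 CPM of LPS mouse 7. Brown fat markers summed to 323, 153 and 266 CPM in control mouse 2 and LPS mice 6 and 7. They summed to 39.3 to 64.3 CPM in the other control and LPS mice and to 789 and 44.3 CPM in the dual-treatment mice. The part of muscle or fat RNA was not tested. Cox6a2, the muscle form of Cox6a1, had 34.2, 36.7 and 34.3 CPM, 31.4, 43.8 and 30.7 CPM, and 32.3 and 31.5 CPM, with a log2FC of 0.01 ± 0.14, or -0.27 with library size alone and -0.17 without LPS mouse 6, none of them called. Cox7a2l had 178, 151 and 153 CPM, 143, 152 and 118 CPM, and 119 and 133 CPM, with a log2FC of -0.22 ± 0.12 that was not called and that was called with library size alone (-0.51, edgeR adjusted p = 0.00286) and the upper quartile (-0.32, 0.038). Over 51.5% of its exon bases Cox8b overlaps the proteasome gene Psmd13 on the other strand, and their reads cannot be told apart.

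**Figure D4:**
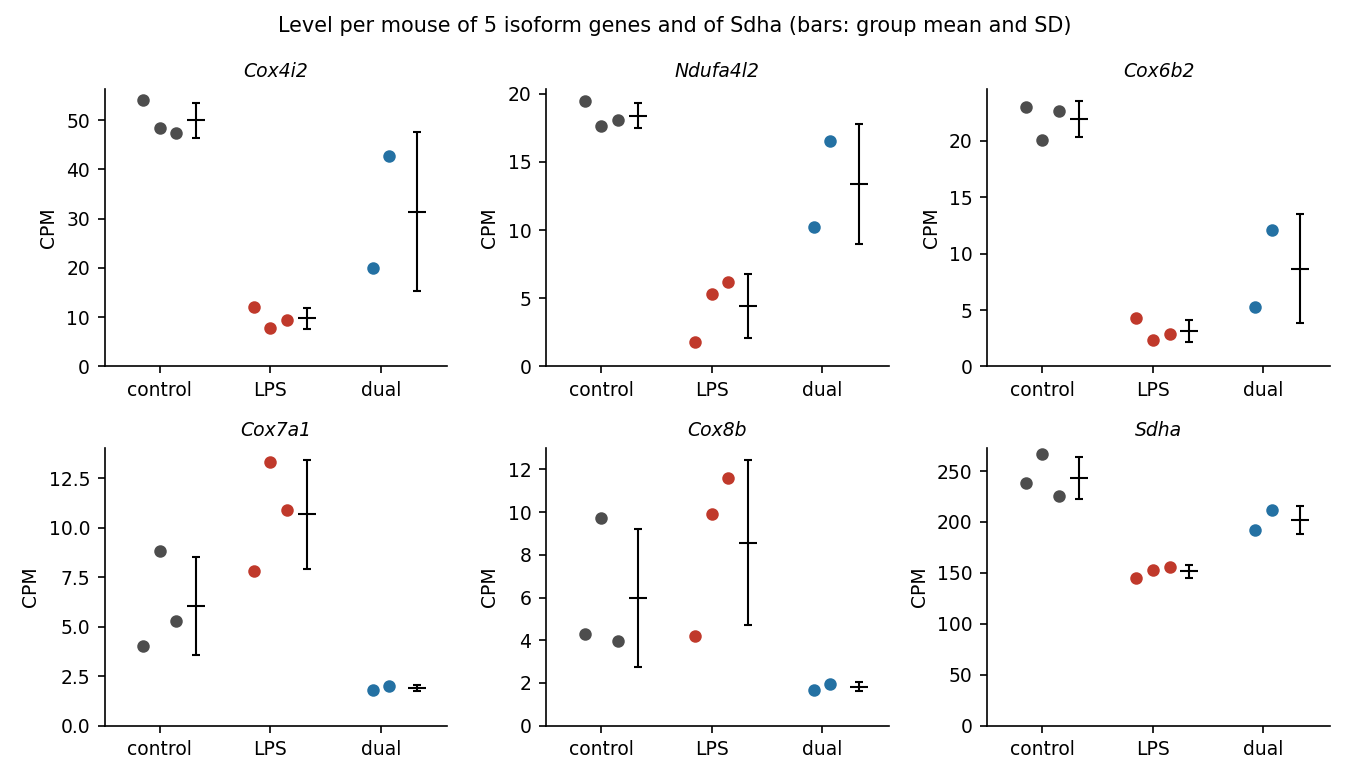
Level in each mouse (CPM, linear axis) of 5 isoform genes and of Sdha in the control (n = 3), LPS (n = 3) and dual-treatment (n = 2) mice; points are mice, and the bars beside them give the group mean and SD. Cox4i2, Cox6b2, Ndufa4l2 and Sdha are lowest in the LPS mice, and Cox7a1 and Cox8b are lowest in the dual-treatment mice.

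Few nuclear subunit genes were called between the mice given YW3-56 before LPS and the control mice in the fit to all 8 libraries, and more were called in other fits. Of the 85 tested, 2 were called higher (Uqcrq and Sdhc) and 2 lower (Cox7a1 and Cox6b2), beside 9.13% higher and 7.02% lower among all tested genes. By edgeR at an unadjusted p under 0.05 there were 21, beside 5658 of the 18560 tested genes. DESeq2 called 2 higher and 3 lower, beside 5.76% and 5.80% of the 32006 genes in that fit. The median log2FC was 0.18, against 0.00 over all tested genes. Of the mitochondrially encoded genes 3 were lower (mt-Nd2, mt-Nd4 and mt-Cytb) and 0 higher by edgeR, 4 had an unadjusted p under 0.05, and DESeq2 called 4 lower and 0 higher; the median log2FC was -0.46. By the fold criterion 0 nuclear members were higher and 3 were lower, beside 7.04% higher and 3.43% lower among all tested genes. The nuclear counts depended on single libraries. A fit of only these 2 groups called 14 higher and 3 lower, beside 11.9% and 9.87% of all tested genes, and without LPS mice 6 and 7 together 9 were higher and 3 lower, beside 10.1% and 8.91%. Without LPS mouse 7, 12 were called higher, beside 10.7% of all tested genes, and without control mouse 1, control mouse 4, dual-treatment mouse 2 or dual-treatment mouse 5 none was. The lower count was 3 without LPS mouse 1, LPS mouse 7 or dual-treatment mouse 5, 1 without control mouse 1, 2 or 4 and 0 without dual-treatment mouse 2. Library size alone gave 4 higher and 2 lower, beside 9.78% and 5.55% of all tested genes. Offsets for length and GC content gave 1 and 4, beside 9.40% and 6.15%, and no filter on low counts gave 2 and 4, beside 6.15% and 4.82%. The mitochondrially encoded count was 1 lower without dual-treatment mouse 2, dual-treatment mouse 5, control mouse 2 or control mouse 4.

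Uqcrq was called higher in the dual-treatment mice by 0.53 ± 0.15 (edgeR adjusted p = 0.041, higher in 2 of 2 mice). The call was lost without dual-treatment mouse 2 (0.44, edgeR adjusted p = 0.23), dual-treatment mouse 5 (0.55, 0.0801), control mouse 1 (0.47, 0.131), control mouse 2 (0.60, 0.0702) or control mouse 4 (0.49, 0.132). Sdhc had 83.2, 92.6 and 86.6 CPM in the control mice, 92.5, 98.1 and 87.9 CPM in the LPS mice and 109 and 116 CPM in the dual-treatment mice. It was the one complex II gene with its highest level in the dual-treatment mice, by 0.36 ± 0.10 over the control mice (edgeR adjusted p = 0.035). This call too was lost without dual-treatment mouse 2 (0.37, edgeR adjusted p = 0.119), dual-treatment mouse 5 (0.28, 0.16), control mouse 1 (0.32, 0.12), control mouse 2 (0.40, 0.0713) or control mouse 4 (0.32, 0.132). Cox7a1 fell by 1.65 ± 0.37 on the log2 scale (edgeR adjusted p = 0.017, lower in 2 of 2 mice), and without dual-treatment mouse 2 the log2FC was -1.61 with an adjusted p of 0.107. The cardiomyocyte markers, given above per mouse, were lower as well, 7 of 10 tested, beside 7.02% of all tested genes, or 2 of 10 without dual-treatment mouse 2; none of the 11 was at 0 in every library, and their part in the level of Cox7a1 was not tested. Cox6b2 fell by 1.34 ± 0.34 (edgeR adjusted p = 0.027), a call lost without dual-treatment mouse 2 (-0.89, adjusted p = 0.105), control mouse 1 (-1.30, 0.0758), control mouse 2 (-1.40, 0.0618) or control mouse 4 (-1.34, 0.0696). Cox8b had the lowest log2FC of the comparison, -1.71 ± 0.52, which was not called (edgeR adjusted p = 0.054) and was called without LPS mouse 1 (-1.71, 0.0226) or LPS mouse 7 (-1.71, 0.0489). Cox4i2 was below the control mice in both dual-treatment mice, by a log2FC of -0.67 ± 0.28 that was not called, and it was called without dual-treatment mouse 5 (-1.35, edgeR adjusted p = 0.00382).

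Below the call, Ndufa4l2 had a log2FC of -0.46 ± 0.39 against the control mice. Atp5mj had 0.47 ± 0.17, Ndufb1 0.44 ± 0.17, Cox5b 0.42 ± 0.16 and Atp5mg 0.40 ± 0.16, with both dual-treatment mice above the 3 control mice for each. These 4 were not called in the fit to all libraries and were called without LPS mouse 7, with an edgeR adjusted p of 0.0272, 0.0151, 0.0139 and 0.0371 at the same log2FC.

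Of the mitochondrially encoded genes, mt-Nd2, mt-Nd4 and mt-Cytb were called lower in the dual-treatment than in the control mice, and the others were not called. mt-Nd2 had 1116, 1156 and 1034 CPM in the control mice, 1241, 1384 and 1492 CPM in the LPS mice and 652 and 667 CPM in the dual-treatment mice. The groups did not overlap, and the dual-treatment mice were the lowest. It fell against the control mice by 0.74 ± 0.13 on the log2 scale (edgeR adjusted p = 0.0056, lower in 2 of 2 mice). mt-Nd4 had 1152, 1380 and 1335 CPM, 1696, 1670 and 1634 CPM, and 898 and 913 CPM in the same order. Its fall of 0.51 ± 0.13 was called (edgeR adjusted p = 0.027), and the call was lost without dual-treatment mouse 2 (-0.53, adjusted p = 0.101), dual-treatment mouse 5 (-0.55, 0.0511), control mouse 2 (-0.46, 0.116) or control mouse 4 (-0.51, 0.077). mt-Cytb fell by 0.46 ± 0.13 (edgeR adjusted p = 0.047), a call lost without LPS mouse 6 (-0.46, adjusted p = 0.0639), dual-treatment mouse 2 (-0.55, 0.0999), dual-treatment mouse 5 (-0.43, 0.126), control mouse 1 (-0.49, 0.11), control mouse 2 (-0.43, 0.175) or control mouse 4 (-0.49, 0.109). mt-Nd5 had a log2FC of -0.41 ± 0.13 without a call (edgeR adjusted p = 0.068), and without LPS mouse 7 it was called (-0.41, adjusted p = 0.0432). For mt-Nd1 the log2FC was -0.07 ± 0.14, for mt-Co1 -0.22 ± 0.15 and for mt-Nd6 -0.43 ± 0.21, none of them called.

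Against the LPS mice, the dual-treatment mice had lower levels of the mitochondrially encoded genes and a mixed picture among the nuclear members. This comparison shares the LPS mice with the first and the dual-treatment mice with the second, so its values are not independent of theirs. YW3-56 came in DMSO, which is not mentioned for the LPS mice, so here too drug and solvent cannot be told apart. Of the 13 mitochondrially encoded genes 8 were lower and 0 higher by edgeR, 9 had an unadjusted p under 0.05, DESeq2 called 9 lower and 0 higher, and 7 of the 7 without a full nuclear copy were among those called lower. The median log2FC was -0.88, against 0.06 over all tested genes, and it was -0.55 with library size alone, where 6 were called lower and the all-gene median was 0.38. By the fold criterion 5 were lower, beside 20.6% higher and 14.7% lower among all tested genes. Of the 85 nuclear members 9 were higher and 21 lower, beside 31.7% higher and 27.4% lower among all tested genes, with 3 and 2 by the fold criterion. The nuclear median log2FC was -0.21. With library size alone it was 0.12, with 18 higher and 5 lower, beside 42.5% higher and 17.4% lower among all tested genes. The upper quartile gave -0.13, with 9 higher and 15 lower, beside 34.4% and 24.8% and an all-gene median of 0.14. DESeq2 size factors gave -0.27, with 6 higher and 28 lower, beside 29.9% and 29.1%. Relative to the median of all tested genes the nuclear median was -0.27 with each of these, which a change of scaling could hardly alter. Without LPS mouse 7 the calls were 44 lower, beside 27.0% of all tested genes, without dual-treatment mouse 5 they were 3 higher and 7 lower, beside 23.5% and 20.7%, and over the libraries left out in turn 3 to 10 were higher.

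Of the 7 mitochondrially encoded genes without a full nuclear copy, mt-Nd5 had the lowest log2FC against the LPS mice, -1.30 ± 0.14 (edgeR adjusted p = 5.8e-05, lower in 2 of 2 mice). It was followed by mt-Cytb at -1.12 ± 0.14, mt-Nd2 at -1.06 ± 0.13, mt-Nd6 at -1.05 ± 0.21, mt-Nd4 at -0.88 ± 0.13 and mt-Nd1 at -0.71 ± 0.14. For each of these 6 both dual-treatment mice were below the 3 LPS mice, and each was called with every scaling tried and without each library in turn. mt-Co1, with 5338 and 4897 CPM in the dual-treatment mice, had a log2FC of -0.45 ± 0.15 (edgeR adjusted p = 0.026). It was not called without LPS mouse 6 (-0.46, edgeR adjusted p = 0.0536), dual-treatment mouse 5 (-0.41, 0.0996), control mouse 1 (-0.45, 0.0505) or control mouse 2 (-0.45, 0.061), nor with library size alone (-0.13, 0.439). Among the 6 genes with a full copy, mt-Co2 had the lowest value, -1.44 ± 0.91, without a call. mt-Co3, a further 1 of these, had -0.63 ± 0.21 (edgeR adjusted p = 0.025), and was not called without LPS mouse 6 (-0.52, adjusted p = 0.0685), dual-treatment mouse 2 (-0.71, 0.0615) or dual-treatment mouse 5 (-0.61, 0.105), nor with library size alone (-0.31, 0.265).

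The nuclear members higher in the dual-treatment than in the LPS mice numbered 9 of 85, beside 31.7% of all tested genes. They include 6 of the 7 that fell with LPS. Both counts rest on the same LPS mice, which by itself makes such an overlap likely. No matching overlap over all genes is given, so nothing is concluded from it. The other 1 of the 7, Ndufb2, had a log2FC of 0.28 ± 0.23 without a call. Cox4i2 was higher by 1.69 ± 0.29 (edgeR adjusted p = 0.0008, higher in 2 of 2 mice), without each library in turn as well. Ndufa4l2 was higher by 1.59 ± 0.40 (edgeR adjusted p = 0.007), Cox6b2 by 1.46 ± 0.34 (0.0051) and Sdha by 0.41 ± 0.11 (0.0098). These 3 were not called without dual-treatment mouse 5, where the log2FC was 1.18 (edgeR adjusted p = 0.0727), 0.72 (0.0695) and 0.32 (0.0818). Ndufs8, with 58.1 and 68.1 CPM in the dual-treatment mice, was higher by 0.60 ± 0.13 (edgeR adjusted p = 0.0034). Ndufa6 was higher by 0.44 ± 0.16 (edgeR adjusted p = 0.038), a call lost without LPS mouse 7 (0.28, adjusted p = 0.0684), dual-treatment mouse 2 (0.47, 0.0834), dual-treatment mouse 5 (0.36, 0.176) or control mouse 4 (0.41, 0.0715). Sdhc was higher by 0.27 ± 0.10 (edgeR adjusted p = 0.036), a call lost without LPS mouse 1 (0.26, adjusted p = 0.0668), LPS mouse 7 (0.22, 0.081), dual-treatment mouse 2 (0.29, 0.0755), dual-treatment mouse 5 (0.20, 0.208), control mouse 2 (0.27, 0.052) or control mouse 4 (0.24, 0.0847).

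The nuclear members lower in the dual-treatment than in the LPS mice came from complexes I, III, IV and V. By complex 8 of 38, 4 of 8, 6 of 17 and 3 of 18 were lower, and 5, 0, 2 and 0 were higher, beside 27.4% lower and 31.7% higher among all tested genes; with library size alone 2, 1, 2 and 0 were lower and 11, 0, 2 and 3 higher, beside 17.4% and 42.5% of all tested genes, with the upper quartile 5, 1, 6 and 3 were lower and 5, 0, 2 and 0 higher, and with DESeq2 size factors 11, 4, 8 and 4 were lower and 3, 0, 2 and 0 higher. A fit of only these 2 groups gave 3, 2, 6 and 3 lower and 3 of complex I higher. Without LPS mouse 7 the lower counts were 17, 7, 11 and 8, and without dual-treatment mouse 5 they were 3, 1, 2 and 1. Complex I had 3 lower without LPS mouse 1, 4 without LPS mouse 6 or dual-treatment mouse 2 and 5 without control mouse 1, and complex III had 2 without LPS mouse 1, LPS mouse 6 or dual-treatment mouse 2. Ndufs3 was lower by a log2FC of -0.76 ± 0.11 (edgeR adjusted p = 0.0004) and Uqcrfs1 by -0.79 ± 0.16 (0.0021), each with both dual-treatment mice below the 3 LPS mice. These 2 calls held without each library in turn and with library size alone, where the log2FC was -0.43 and -0.45. Cox5b was lower by -0.54 ± 0.16 (edgeR adjusted p = 0.017), not called without dual-treatment mouse 5 (-0.53, adjusted p = 0.069) or with library size alone (-0.21, 0.236). Uqcrq was lower by -0.46 ± 0.15 (edgeR adjusted p = 0.027), not called without LPS mouse 1 (-0.43, adjusted p = 0.0521), LPS mouse 6 (-0.35, 0.0712) or dual-treatment mouse 5 (-0.43, 0.107), nor with library size alone (-0.13, 0.463). The muscle isoforms Cox7a1 and Cox8b had the lowest values, -2.47 ± 0.38 (edgeR adjusted p = 0.00047) and -2.23 ± 0.53 (0.0054), beside 8 of 10 cardiomyocyte and 10 of 11 skeletal muscle markers called lower and 0 higher by edgeR, with 8 and 11 at an unadjusted p under 0.05. Cox4i1 had a log2FC of -0.34 ± 0.13 (edgeR adjusted p = 0.051) and was called without LPS mouse 7 (-0.46, adjusted p = 0.00553).

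The factors that build the complexes were called in both directions with LPS. Of 16 complex I assembly factors 1 rose and 7 fell with LPS, with a median log2FC of -0.22, beside 32.6% higher and 33.9% lower among all tested genes, and in dual-treatment against LPS mice 10 were higher and 1 lower, beside 31.7% and 27.4%. Library size alone gave 0 and 8, beside 23.4% and 42.2% of all tested genes, and 12 and 0, beside 42.5% and 17.4%. Without LPS mouse 7 the first count was 3 and 7, and without dual-treatment mouse 2 the second was 8 and 0. Tmem126b, needed for the membrane arm of complex I, had 23.0, 26.8 and 24.0253 CPM in the control mice, 2.07, 3.17 and 3.57 CPM in the LPS mice and 19.3 and 25.7 CPM in the dual-treatment mice. It fell with LPS by 3.06 on the log2 scale (edgeR adjusted p = 2.5e-06), and the dual-treatment mice overlapped the control mice. Ndufaf6 rose by 0.73 (edgeR adjusted p = 0.0065), or 0.44 with library size alone (0.0639). Of 30 tested factors of complexes II to V, 6 rose and 13 fell with LPS (2 and 18 with library size alone), the lowest being Coa6, a copper-handling factor of complex IV, at -2.05, and the highest the copper chaperone Sco1 at 1.11.

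Other genes of the organelle were taken as lists, and their counts stand beside 32.6% higher and 33.9% lower among all tested genes with LPS (23.4% and 42.2% with library size alone). Of 9 other electron carriers and subunits, among them Ndufab1 and Cyc1, 3 rose and 3 fell with LPS (1 and 4 with library size alone); cytochrome c (Cycs) had 0.72 and the pyrimidine synthesis enzyme Dhodh -1.47. Of 13 genes of the tricarboxylic acid cycle 4 rose and 2 fell (3 and 3 with library size alone, 5 and 1 without LPS mouse 1 or control mouse 2, 4 and 1 without control mouse 4), from Dld at 0.92 to Ogdh at -0.84, both parts of the 2-oxoglutarate dehydrogenase. Of 12 genes of the outer membrane and protein import 6 rose and 0 fell by edgeR (6 at an unadjusted p under 0.05; 4 and 2 with library size alone, 4 and 1 with the upper quartile or without LPS mouse 6), with the import channel Timm23 at 1.60 and the anion channel Vdac3 at -0.22, not called. Of 10 carriers and uncoupling genes 7 rose and 0 fell (7 at an unadjusted p under 0.05), with Pdk4, which switches off pyruvate dehydrogenase, at 3.78 and the pyruvate carrier Mpc2 at -0.03, not called. Of 17 matched genes, of 18, that keep and transcribe mitochondrial DNA 6 rose and 7 fell (3 and 10 with library size alone, 4 and 8 with the upper quartile), from Pnpt1, an RNA-degrading enzyme, at 1.27 to Fastkd5, an RNA-processing factor, at -1.75. Chosen from this list after their values were seen, Tfam, which packs mitochondrial DNA and starts its transcription, rose by 0.91 and Polrmt, the mitochondrial RNA polymerase, fell by 1.07 on the log2 scale. In dual-treatment against control mice these 5 lists had 0, 0, 1, 3 and 0 genes higher and 0 lower by edgeR, beside 9.13% and 7.02% of all tested genes, with 0, 1, 2, 3 and 3 at an unadjusted p under 0.05. The third count was 0 without dual-treatment mouse 2 or any control mouse, the fourth was 1 without dual-treatment mouse 2, control mouse 2 or control mouse 4, and the fifth was 1 without dual-treatment mouse 5.

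Of the 10 regulators of subunit genes, 4 rose and 2 fell with LPS, beside 32.6% and 33.9% of all tested genes; library size alone gave 3 and 2, beside 23.4% and 42.2%, and leaving out LPS mouse 1, control mouse 2 or control mouse 4 gave 4 and 1. Gabpb1, which encodes the beta chain of the ETS factor GABP (NRF-2), had 24.0028, 19.9736 and 23.7 CPM in the control mice, 74.6, 61.2 and 67.4 CPM in the LPS mice and 22.8 and 24.2 CPM in the dual-treatment mice. It rose with LPS by 1.59 (edgeR adjusted p = 3.2e-06), and the dual-treatment mice were at the control level. Its partner Gabpa rose by 0.74, the coactivator Pprc1 by 0.92 and Nrf1, a factor of many subunit promoters, by 0.48, the last of which was not called with library size alone (0.19, edgeR adjusted p = 0.0647). The fatty acid receptor gene Ppara fell by 1.83 on the log2 scale and Esrra, an estrogen-related receptor, by 0.36; the call of Esrra was lost without LPS mouse 1 (-0.24, edgeR adjusted p = 0.085), control mouse 2 (-0.31, 0.0893) or control mouse 4 (-0.36, 0.0782). Ppargc1a and Ppargc1b, coactivators of mitochondrial biogenesis, had a log2FC of 0.16 and 0.25, Yy1 of 0.16 and Perm1 of 0.17, none of them called. In dual-treatment against control mice 0 of the 10 were called by edgeR, with 1 at an unadjusted p under 0.05; without LPS mouse 1 or LPS mouse 7 that 1, Ppara, was called lower.

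The promoters of the nuclear members were searched for the letters that 3 such factors are known to bind, in the 250 bases before the transcription start (RefSeq, GRCm38.p6), on both strands. In the table used here 57 promoters of 55 of the 89 nuclear members were matched. Cox4i2, Ndufa4l2, Cox4i1 and Uqcrq were among those without an entry, and of complex V only Atp5pb had one. The shares below describe the matched members only. The NRF1 letters GCGCATGC (reverse GCATGCGC) were in 5 of the 57 (8.77%), against 2.26% of all 32851 promoters. The ETS letters of GABP, CCGGAAG (reverse CTTCCGG), were in 8 of 57 (14.0351%), against 6.91%, and the YY1 letters AAGATGGC (reverse GCCATCTT) were in 0 of 57, against 1.56%. Of the 35 promoters of members that rose with LPS 4 held the NRF1 letters and 6 the ETS letters, and of the 5 of members that fell 1 and 0; of the 16 of members not called 0 held the NRF1 letters and 2 the ETS letters. A match is a description of letters and says nothing of binding. Shown with the matches in capitals are Cox6a1 (chr5:115348959-115349208, minus strand), which holds both motifs, with the NRF1 letters overlapping their own reverse, Ndufs3 (chr2:90904722-90904971, minus), the complex I gene with the highest rise, and Ndufa6 (chr15:82354292-82354541, minus), which fell and holds the NRF1 letters, and beside them Cox6b2 (chr7:4753095-4753344, minus) and Sdha (chr13:74350241-74350490, minus), which fell and hold none of these letters.
Cox6a1: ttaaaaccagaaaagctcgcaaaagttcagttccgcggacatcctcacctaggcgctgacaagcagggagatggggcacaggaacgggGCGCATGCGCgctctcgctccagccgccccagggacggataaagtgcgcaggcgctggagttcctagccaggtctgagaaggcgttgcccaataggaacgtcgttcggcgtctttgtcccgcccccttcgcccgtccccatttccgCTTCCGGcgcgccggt
Ndufs3: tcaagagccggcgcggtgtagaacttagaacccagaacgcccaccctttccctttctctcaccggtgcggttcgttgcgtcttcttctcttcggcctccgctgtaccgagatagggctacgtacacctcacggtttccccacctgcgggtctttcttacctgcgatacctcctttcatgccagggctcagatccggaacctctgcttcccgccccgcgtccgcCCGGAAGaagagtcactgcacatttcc
Ndufa6: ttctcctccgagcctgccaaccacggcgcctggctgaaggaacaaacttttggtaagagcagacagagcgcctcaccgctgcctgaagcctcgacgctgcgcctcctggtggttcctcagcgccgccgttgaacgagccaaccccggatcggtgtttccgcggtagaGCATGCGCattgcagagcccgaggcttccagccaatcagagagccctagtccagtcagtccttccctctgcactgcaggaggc
Cox6b2: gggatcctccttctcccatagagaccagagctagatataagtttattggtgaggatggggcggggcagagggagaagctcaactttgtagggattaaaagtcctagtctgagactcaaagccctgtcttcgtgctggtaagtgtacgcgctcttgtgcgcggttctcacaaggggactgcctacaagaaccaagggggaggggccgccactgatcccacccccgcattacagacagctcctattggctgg
Sdha: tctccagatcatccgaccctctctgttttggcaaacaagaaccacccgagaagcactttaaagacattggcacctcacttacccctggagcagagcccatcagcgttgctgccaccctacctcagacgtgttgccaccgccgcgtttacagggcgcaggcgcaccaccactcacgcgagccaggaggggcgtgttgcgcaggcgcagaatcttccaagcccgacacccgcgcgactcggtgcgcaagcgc

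Many of the nuclear members have a short transcript. The median canonical transcript of the 85 tested was 990 bases long (371 to 7389) with a GC content of 51.8%, against 2932.5 bases and 50.1% over the tested genes, and the mitochondrially encoded genes had a GC content of 37.1%. With offsets for length and GC content, 47 nuclear members were higher with LPS and 10 lower, and relative to all tested genes the median was 0.35. The members that were tested lie on 19 nuclear chromosomes and the mitochondrial genome. Several overlap a gene on the other strand over much of their exon bases, among them, chosen after their values were seen, Ndufb11 (67.8%, with Rbm10), Ndufs7 (49.4%, with Gamt), Ndufa3 (46.0%, with Tfpt), Ndufa13 (43.3%, with Tssk6), Ndufb1 (41.8%, with Cpsf2) and Ndufa6 (25.6%, with Smdt1), and reads of these partners cannot be told apart.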

How the data were processed

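Gene counts of 8 mouse lung RNA-seq libraries were used as deposited: per the labels and methods, the authors checked reads with FastQC 0.11.9, trimmed them with Trim Galore, aligned them to GRCm39 with HISAT2 2.2.1 and counted them with featureCounts 2.0.1. The labels name a poly(A) selection and an rRNA removal kit without saying which was used, and strand and multi-mapping settings are not given. Total counts ran from 19061949 to 20908608 per library. Annotation was GENCODE M39; the 667 identifiers it does not hold had 0.0533% of the counts. With R 4.3.3 and edgeR 4.0.16, counts were filtered (filterByExpr), scaled (TMM) and fitted by quasi-likelihood with 1 group factor and 5 residual degrees of freedom, and p values were adjusted over 18560 genes (Benjamini-Hochberg). DESeq2 1.42.0 was an alternative, beside other scalings, filters on low counts, offsets for length and GC content, only the 2 groups compared, and leaving out mice. Nuclear copies were sought with blastn 2.17.0, and tables were made with Python 3.11.15. Wilson intervals cover counting error only. Named members are the 5 tested nuclear ones with the highest and the 5 with the lowest log2 fold change of each comparison, the isoforms and the inhibitor with their partners, complex II, the mitochondrially encoded genes and, in each complex, the nuclear member with the highest control level per kb. All regulators are named, and of each other pathway list the genes with the highest and the lowest log2 fold change with LPS. One member that this rule names is not reported here by itself, and the counts include it. Members and lists were chosen with earlier results of these data known.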

Additional observations from a re-analysis of the deposited data

How the results depend on the processing

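No paired analysis was possible because each mouse is in 1 group and no link between mice of different groups is given. Numbers that recur between groups, 1 in control and LPS mice and 2 in control and dual-treatment mice, are not described as pairs. All alternatives were run. Over 264 comparisons of 88 named genes and 4746 alternatives, 4434 kept their side of the threshold, 196 lost a call, 115 gained one and 1 called value turned direction, that of Yy1 in dual-treatment against LPS mice, from -0.29 to 0.0320 with library size alone. Values without a call near 0, such as Sdhc and Cox6a2 with LPS, also changed sign under some alternatives. Where a left-out mouse leaves 1 dual-treatment mouse, the lone sample is assumed to vary like the other groups. With 2 or 3 mice per group small differences can be missed, and genes with few counts more so. The cause was not tested for any of the values below.

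With library size alone, LPS against control mice gave 20 nuclear members higher and 15 lower with a median log2FC of 0.14. Of the mitochondrially encoded members 3 were higher and 1 lower with a median of 0.0143, beside 23.4% and 42.2% of all tested genes. Dual-treatment against control mice gave 4 nuclear members higher, beside 9.78% of all tested genes. Dual-treatment against LPS mice gave 18 nuclear members higher and 5 lower, beside 42.5% and 17.4% of all tested genes. The nuclear median was 0.12, whose direction is turned, and the mitochondrially encoded median was -0.55. Without LPS mice 6 and 7 together, 1 mitochondrially encoded member was lower with LPS, and 9 nuclear members were higher in dual-treatment than in control mice and 4 than in LPS mice. Offsets for length and GC content gave 1 mitochondrially encoded member lower with LPS, beside 33.9% of all tested genes. They gave 1 nuclear member higher and 4 lower in dual-treatment against control mice, beside 9.40% and 6.15%. No filter on low counts gave 4 lower there, beside 4.82% of all genes in that fit, and a fit of only the 2 groups compared gave 14 higher, beside 11.9%. Without the 6 mitochondrially encoded members with a full nuclear copy, an alternative chosen after seeing the data, their median with LPS was 0.62.

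Leaving out each mouse in turn gave the ranges below, which include fits that leave 1 dual-treatment mouse. The shares among all tested genes moved too. Without a control or LPS mouse, 28.9% to 31.5% were higher and 30.8% to 33.6% lower with LPS. In dual-treatment against control mice these shares were 5.28% to 10.7% and 3.15% to 9.06%. In dual-treatment against LPS mice they were 28.9% to 31.2% and 25.7% to 27.0%. In LPS against control mice, nuclear members were 40 to 57 higher and 5 to 10 lower with a median of 0.37 to 0.50, and mitochondrially encoded members were 4 to 6 higher and 0 to 1 lower with a median of 0.27 to 0.41. In dual-treatment against control mice, nuclear members were 0 to 12 higher and 0 to 3 lower with a median of 0.12 to 0.20, and mitochondrially encoded members were 1 to 4 lower with a median of -0.53 to -0.35. In dual-treatment against LPS mice, nuclear members were 3 to 10 higher and 7 to 44 lower with a median of -0.27 to -0.13, and mitochondrially encoded members were 6 to 9 lower with a median of -0.91 to -0.87.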

Other observations

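The ribosomal RNAs of mitochondria, chosen after their values were seen, were lower with LPS. Of the 13 protein-coding genes of the same genome 6 rose and 0 fell by edgeR, beside 32.6% and 33.9% of all tested genes. Library size alone gave 3 and 1, beside 23.4% and 42.2%. At an unadjusted p under 0.05 there were 6 of the 13, beside 12916 of the 18560 tested genes. In dual-treatment against control mice both kinds had lower values. mt-Rnr1, the small ribosomal RNA, had 318, 280 and 294 CPM in the control mice, 100, 127 and 134 CPM in the LPS mice and 118 and 139 CPM in the dual-treatment mice. Both treated groups were below the control mice without overlap, and they overlapped each other. It fell with LPS by 1.31 on the log2 scale (edgeR adjusted p = 2.0e-05, lower in 3 of 3 mice) and in dual-treatment against control mice by 1.21 (0.00085). mt-Rnr2, the large ribosomal RNA, had 459, 467 and 505 CPM, 328, 390 and 418 CPM, and 174 and 211 CPM in the same order, with the dual-treatment mice lowest. It fell by 0.33 with LPS (edgeR adjusted p = 0.038), a call lost without LPS mouse 1, LPS mouse 6 or any control mouse (-0.36 to -0.23), and by 1.31 in dual-treatment against control mice (0.0005). How much of either RNA a library keeps depends on how ribosomal RNA was removed, which the labels do not settle.

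The proteins of the mitochondrial ribosome, 77 tested of 78 with Mrpl53 at 0 in every library, were called with LPS in shares near those of all tested genes. Of these, 29 rose and 22 fell with LPS (37.7% and 28.6%, beside 32.6% and 33.9% of all tested genes), with a median log2FC of 0.15, and library size alone gave 14 and 30, beside 23.4% and 42.2%. They reached from Mrps18c at 1.05 to Mrpl14 at -1.78. In dual-treatment against control mice 6 were higher and 0 lower by edgeR, beside 9.13% and 7.02% of all tested genes, with 18 at an unadjusted p under 0.05; the 6 became 1 without dual-treatment mouse 2, 2 without control mouse 4, 3 without control mouse 2 and 11 without LPS mouse 7 or in a fit of only the 2 groups. In dual-treatment against LPS mice 26 were higher and 15 lower, beside 31.7% and 27.4% of all tested genes, with 44 and 3 with library size alone, beside 42.5% and 17.4%, and 30 and 10 with the upper quartile; the lower count was 9 without LPS mouse 1 or LPS mouse 6 and 8 without dual-treatment mouse 5.

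The markers of some other cell types differed between the groups, and their part in the levels of the subunit genes was not tested. With LPS 12 of 12 neutrophil markers were higher by edgeR. Macrophage and monocyte markers had 1 of 10 higher and 3 lower, and lymphocyte markers 0 of 7 higher and 3 lower. These stand beside 32.6% higher and 33.9% lower among all tested genes. In dual-treatment against control mice the 3 lists had 9, 6 and 0 higher and 0 lower by edgeR, beside 9.13% and 7.02%. The 12 neutrophil markers, led by S100a9, summed to 350, 277 and 199 CPM in the control mice, 2975, 3857 and 2654 CPM in the LPS mice and 2162 and 2633 CPM in the dual-treatment mice. The 10 macrophage and monocyte markers, led by Lyz2, summed to 6939, 6231 and 8309 CPM, 6467, 5539 and 3769 CPM, and 7186 and 10177 CPM. The 7 endothelial markers, led by Cdh5, summed to 2650, 2961 and 3035 CPM, 2119, 1769 and 1652 CPM, and 2744 and 2820 CPM. The 6 markers of alveolar type 1 cells, led by Ager, summed to 5310, 5050 and 5114 CPM, 3664, 3056 and 2087 CPM, and 2512 and 3609 CPM. The 7 lymphocyte markers, led by Cd79a, summed to 33.3, 36.1 and 32.9 CPM, 22.7, 21.7 and 13.6 CPM, and 53.7 and 28.1 CPM. None of these markers was at 0 in every library.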
